A study of Papio anubis with 12 samples.

Results

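The genes described here make and remodel glycerophospholipids, the main lipids of cell membranes. The list held 44 genes, from the first acylation of glycerol 3-phosphate to the enzymes that exchange acyl chains on finished phospholipids. A gene was measured where a probe set of the array was annotated with 1 symbol and that symbol was the gene's. By this rule 41 of the 44 genes had a probe set, out of 19775 genes measured in this way, and together they had 106 probe sets. AGPAT3, MBOAT2 and PISD had none under the rule and were not analysed here. Each gene was represented by its brightest probe set, the one with the highest mean over the arrays, and the others were set beside it.

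RNA came from the precentral gyrus, the primary motor area of the cerebral cortex, of 12 baboon (Papio anubis) neonates with 1 array for each animal. There were 3 formulas with 4 animals each, and tissue was taken at 83 to 87 days of age. DHA made up 1.00% in formula L3 and 0.33% in formula L, both of which had 0.67% ARA, and the control formula C was free of the pair. DHA is docosahexaenoic acid and ARA is arachidonic acid, the chief long chain polyunsaturated fatty acids of the brain. As formulas, L3 and L therefore differed in DHA alone, whereas either differed from C in both fatty acids. The animals were 4 females in L3, 3 females and 1 male in L, and 2 females and 2 males in C. Their ages were 83 to 84 days in L3, 84 to 87 in L and 83 to 85 in C. The groups of animals thus differed in sex and age as well as in formula. Probes of the Affymetrix HG-U133 Plus 2.0 array were designed on human transcripts, and a low transcript level and a mismatch between baboon transcript and human probe cannot be told apart.

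Glycerophospholipid synthesis starts with the acylation of glycerol 3-phosphate to lysophosphatidate and then to phosphatidate. Phosphatidate is either dephosphorylated to diacylglycerol, which receives choline or ethanolamine, or activated to CDP-diacylglycerol, the precursor of phosphatidylinositol, phosphatidylglycerol and cardiolipin. In the remodeling cycle a fatty acid is removed and lysophospholipid acyltransferases put another in its place, a step by which DHA and ARA enter the phospholipids of nerve cell membranes.

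No member differed between formulas after correction for multiple testing. Differences are given as log2 values with the standard error (SE) from limma, which was fitted to log2 (signal + 16) after quantile normalization, and a positive L3/C means a higher value in L3 than in C. Adjusted p values are those of Benjamini and Hochberg over 54613 probe sets. At an adjusted p under 0.05, limma called 0 of 41 members in L3/C, 0 in L/C and 0 in L3/L, and over all probe sets the percentage called was 0 in L3/C, 0 in L/C and 0 in L3/L. The lowest adjusted p of a member was 0.891, in L3/L.

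Without correction, the p value of limma was under 0.05 for 1 of 41 members in L3/C, for 0 in L/C and for 1 in L3/L. Over the brightest probe sets of all genes the percentage at this threshold was 3.88 in L3/C, 2.11 in L/C and 5.06 in L3/L. The member in L3/C was PCYT1A, which was higher in L3, and the member in L3/L was DGKG, which was lower in L3. The probe set of PCYT1A ranked as brightest only through its L3 values, as given below. For any difference among the 3 formulas 0 of 41 members had an unadjusted p under 0.05, where the percentage over all genes was 3.24. The member counts are thus at or below what all genes gave. The methods' tests, a multiclass test joined with pairwise tests on the same values, gave 0 members in each of the 3 comparisons. Over all probe sets the percentage under these tests was 1.93 in L3/C, 1.29 in L/C and 2.21 in L3/L.

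The median log2 difference of the 41 members was −0.16 in L3/C, −0.03 in L/C and −0.14 in L3/L, against −0.03, −0.03 and 0.00 over the brightest probe sets of all genes. Of the members 15 were higher and 26 lower in L3/C, 18 higher and 23 lower in L/C, and 15 higher against 26 lower in L3/L. Over all 106 probe sets of these genes the L3/C median was −0.01 with 53 higher and 53 lower. A difference beyond 2-fold was seen for 2 members in L3/C (AGPAT4 and MBOAT7), 0 in L/C and 2 in L3/L (DGKG and PEMT), none of them at an adjusted p under 0.05. Over the brightest probe sets of all genes the percentage beyond 2-fold was 6.04 in L3/C, 3.79 in L/C and 7.06 in L3/L, so the members were not above it in any comparison. The median SE of a log2 difference, 0.51, shows how wide the spread was with 4 arrays per formula.

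**Figure D1:**
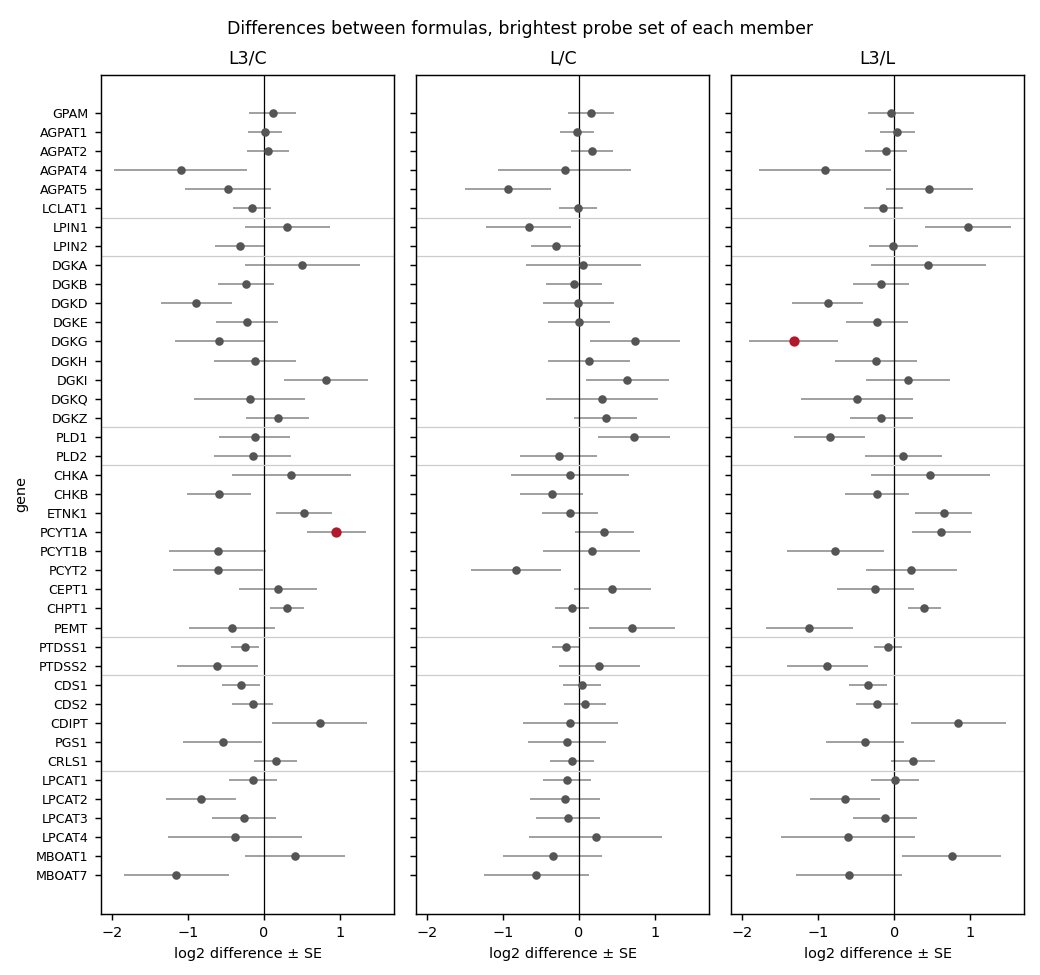
Log2 difference of each member with its SE (x axis, log2 units) in L3/C, L/C and L3/L, 1 row per gene, with the role groups parted by grey lines. The 2 red points, PCYT1A in L3/C and DGKG in L3/L, have an unadjusted p under 0.05, and the SE bars of most other genes reach or pass 0.

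Arrays of one formula did not form a block in the members. The mean deviation of the 41 members from their own 12-array means was −0.06, −0.13, −0.34 and 0.16 on the L3 arrays, −0.62, 0.26, 0.31 and 0.21 on the L arrays, and −0.09, −0.20, 0.30 and 0.18 on the C arrays. L replicate 1 stood lowest, with 15 of 41 members above their mean, while on the other 3 L arrays 31 or 32 members were above it. The 3 formulas overlapped on this measure, and the SD between arrays of a formula was 0.31.

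**Figure D2:**
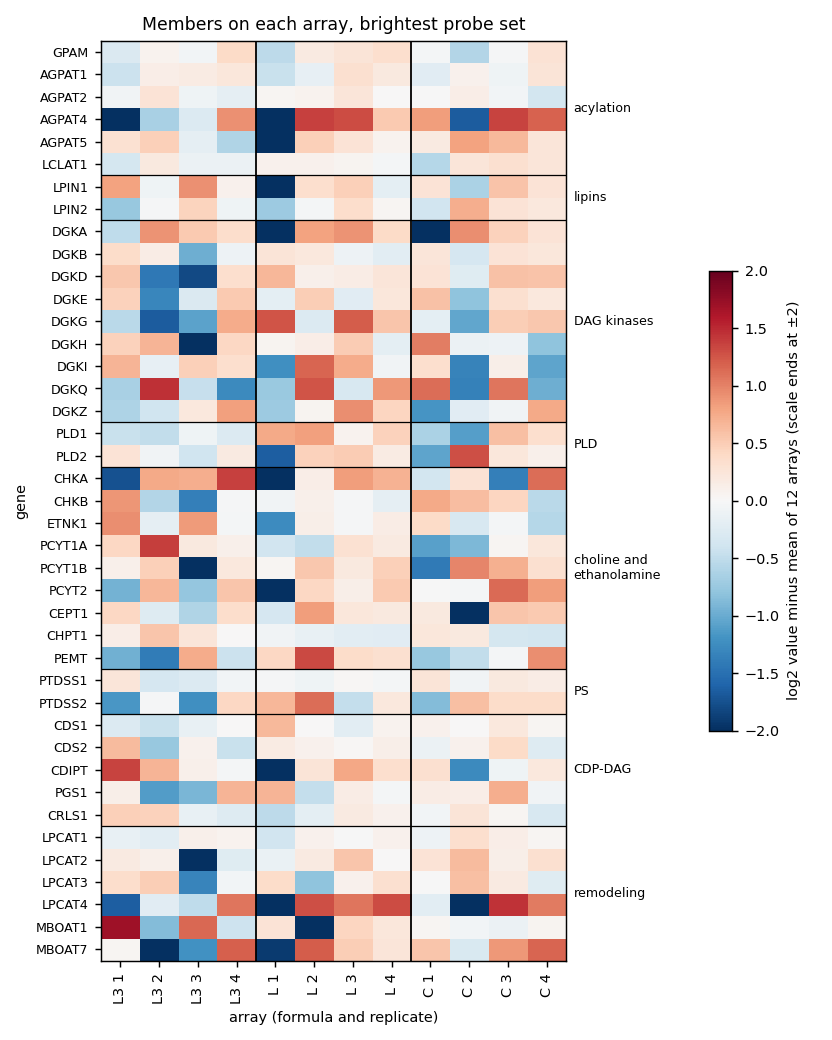
Log2 value of each member minus its mean over the 12 arrays (colour, scale ends at ±2), with 41 genes in rows by role and the 12 arrays in columns by formula. Single arrays stand out more than formulas do, above all L replicate 1, whose mean deviation was −0.62.

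The mean level of the members moved with the signal of the spike-in controls. These were the Bio and Cre control probe sets of the array, for added transcripts that are not the animal's own. Their mean log2 signal was 12.98, 13.42, 13.72 and 10.80 on the L3 arrays, 13.04, 11.80, 11.24 and 10.74 on the L arrays, and 12.26, 12.71, 12.00 and 11.11 on the C arrays. Across the 12 arrays the mean deviation of the members correlated with it at r = −0.77 (Spearman's rho −0.73), at −0.72 without the 2 arrays farthest from the median, and at −0.77 on deviations from the formula means. For the mean over all genes r was −0.44. The arrays with more spike-in signal, among them 3 of the 4 L3 arrays, were thus those with lower member levels.

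**Figure D3:**
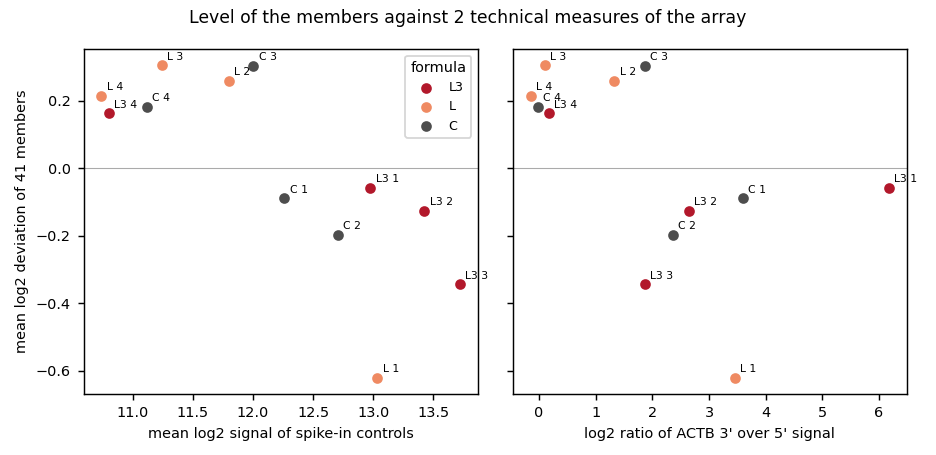
Mean log2 deviation of the 41 members on each array (y axis) against the mean log2 signal of the spike-in controls (left) and the log2 ratio of ACTB 3′ over 5′ signal (right), coloured by formula. In the left panel the arrays fall from upper left to lower right with r = −0.77, and each formula has arrays above and below 0.

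A second technical measure was the ratio of the 3′ to the 5′ signal of ACTB, which rises as RNA degrades. Its log2 value ranged over 0.17 to 6.18 in L3, −0.15 to 3.45 in L and −0.03 to 3.59 in C, with replicate 1 highest in each formula. Its correlation with the mean deviation of the members was −0.55 (rho −0.64), and −0.71 without the 2 arrays farthest from the median. With the spike-in signal as a covariate the member medians were −0.10 in L3/C, −0.08 in L/C and 0.08 in L3/L, and with the ACTB ratio −0.19, −0.06 and −0.05.

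With the spike-in signal as a term beside the formulas in limma, 33 of 41 members had a negative slope, against 50.1% of all genes. At an unadjusted p under 0.05 the slope was negative for 7 members, with 9.84 as the percentage over all genes, and at an adjusted p under 0.05 for 1 member, with 0.850 as the percentage. That member was MBOAT7, with a slope of −0.96 (SE 0.21) in log2 units per log2 unit of spike-in signal at an adjusted p of 0.0323. In the corresponding fit to the ACTB ratio, 9 members had a negative slope at an unadjusted p under 0.05 (percentage over all genes 8.48). At an adjusted p under 0.05 there were 2 members (percentage over all genes 1.68), the diacylglycerol kinase DGKZ at an adjusted p of 0.00439 and the choline kinase CHKA at 0.0145. These fits were added after the data had been seen.

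Markers of the cortex were present, with a summed signal of 10 neuron markers of 69407 to 93104 in L3, 63962 to 106425 in L and 78731 to 105440 in C. For 7 astrocyte markers the sums were 22702 to 38843 in L3, 22539 to 33255 in L and 21478 to 34082 in C. The 7 oligodendrocyte markers measured of 8 summed to 6099 to 14637 in L3, 7490 to 18138 in L and 6951 to 17455 in C. In L3/C the number of markers with a higher mean was 4 of 10 for neurons, 5 of 7 for astrocytes, 1 of 7 for oligodendrocytes, 3 of 5 for their precursors, 3 of 8 for microglia, 3 of 6 for endothelium and 2 of 2 measured erythroid genes. In L/C these numbers were 4, 4, 5, 5, 8, 4 and 0, and in L3/L they were 4, 6, 1, 2, 1, 3 and 2. The median log2 difference of the microglia markers was −0.45 in L3/L. The part of cell makeup in the member differences was not tested. The dimmest of these markers, CSPG4 and C1QA, had mean signals of 82.3 and 87.9, below the median signal of every array (108.8 to 174). These signals alone do not show that the 2 markers were detected. Because RNA was taken from whole tissue, fewer cells of a type and less RNA per cell cannot be told apart.

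The largest L3/C difference in the choline and ethanolamine branches was that of PCYT1A, the enzyme that activates phosphocholine with CTP and sets the pace of phosphatidylcholine synthesis. Its normalized log2 values were 9.14, 10.10, 8.91 and 8.83 in L3, 8.35, 8.23, 9.03 and 8.90 in L, and 7.64, 7.83, 8.76 and 8.95 in C. The L3 arrays lay above 3 of the 4 C arrays and overlapped the remaining one, C replicate 4. The L3/C difference was 0.95 (SE 0.39, 1.93-fold), with an unadjusted limma p of 0.0260 and an exact two-sided permutation p of 0.0857, where 0.0286 is the smallest p that 4 against 4 arrays allow. The L/C difference was 0.33 and the L3/L difference 0.62. Without C replicate 1, C replicate 2 or L3 replicate 2 the limma p in L3/C was 0.0900, 0.0729 or 0.107. The 2 other probe sets of PCYT1A gave L3/C differences of −0.10 and −0.42. With sex as a covariate in limma the brightest gave 0.84 (SE 0.46).

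The second probe set of PCYT1A, in contrast, was lower in L3 than in L, with log2 values of 8.27, 9.18, 8.02 and 8.10 in L3, 9.98, 9.14, 9.01 and 8.72 in L, and 8.82, 8.50, 8.03 and 8.59 in C. Its L3/L difference was −0.82, where the brightest gave 0.62. The 2 probe sets thus put the formulas in a different order, and which of them follows the baboon transcript was not tested. The choice of the brightest turned on L3. The second probe set had the higher mean log2 value in C and in L, and the lower mean in L3 alone. The L3/C difference of the brightest is therefore not independent of that choice.

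PCYT2 does the same for phosphoethanolamine and ranked first of these genes by L/C p value. Its log2 values were 7.64, 9.24, 7.81 and 9.14 in L3, 6.13, 9.00, 8.70 and 9.10 in L, and 8.57, 8.55, 9.71 and 9.41 in C. The L/C difference of −0.83 (SE 0.59, exact permutation p = 0.371) came largely with L replicate 1, while the other 3 L arrays lay within the C range, and it was −0.13 without L replicate 1. The second probe set of PCYT2 gave 0.00 in L/C.

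CHPT1, which joins CDP-choline with diacylglycerol, was named after its values had been seen, because its 4 L3 arrays lay above the 4 L arrays. Its log2 values were 10.44, 10.85, 10.55 and 10.30 in L3, 10.22, 10.15, 10.09 and 10.07 in L, and 10.53, 10.50, 9.94 and 9.93 in C. L3 was above L by 0.40 (SE 0.22, exact permutation p = 0.0286, unadjusted limma p = 0.0912), yet the C arrays overlapped both. In the deposited signals the L3 arrays, at 1205 to 1638, overlapped the L arrays, at 920.8 to 1357, so the 2 formulas were apart only after quantile normalization. The other 2 probe sets of CHPT1 differed in L3/L by −1.01 and 0.08.

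The other members of these branches overlapped among formulas in every comparison. Deposited signals over the 12 arrays ranged over 29.7 to 538.4 for the choline kinase CHKA, 197.8 to 768.0 for the choline kinase CHKB and 302.7 to 1077 for the ethanolamine kinase ETNK1. They were 27.2 to 499.5 for PCYT1B, the second gene for the step of PCYT1A, 99.9 to 815.3 for the choline and ethanolamine phosphotransferase CEPT1 and 23.7 to 201.6 for PEMT, which methylates phosphatidylethanolamine to phosphatidylcholine. The lowest signals of CHKA, PCYT1B and PEMT were thus close to the pseudocount of 16, where log2 differences are compressed. Over the 9 genes the median log2 difference was 0.19 in L3/C (5 higher, 4 lower), −0.09 in L/C (4 higher, 5 lower) and 0.23 in L3/L (5 higher, 4 lower).

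**Figure D4:**
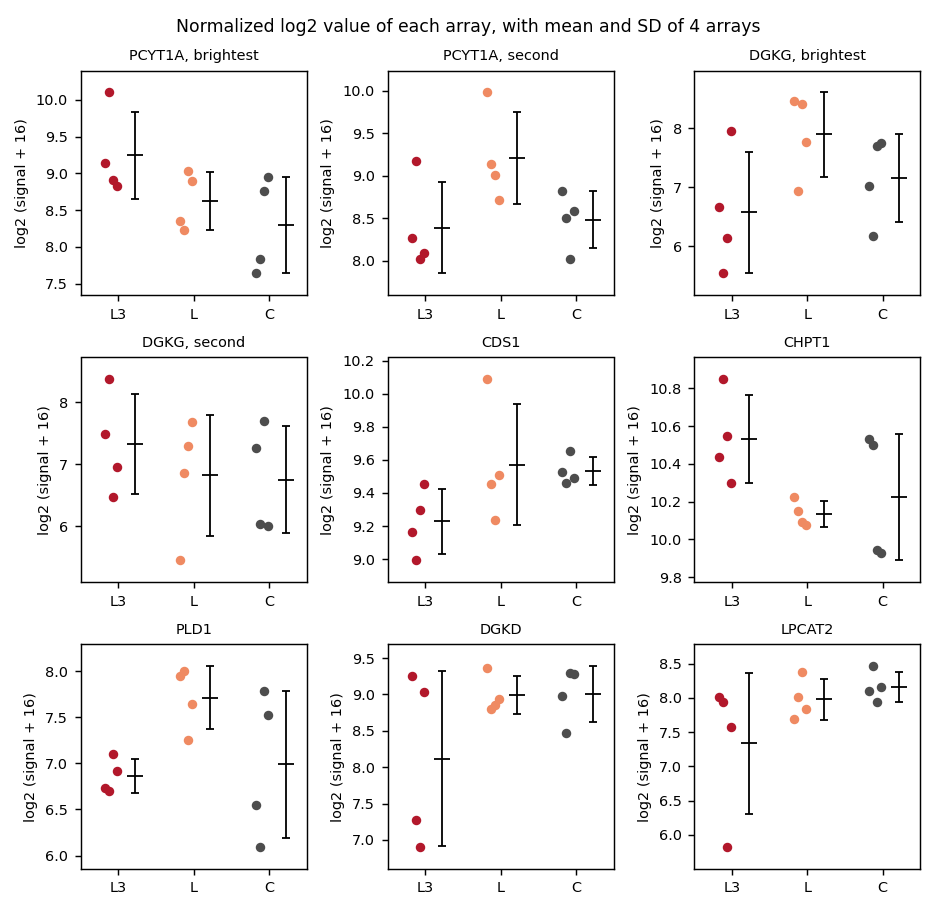
Normalized log2 (signal + 16) on each array (y axis) for 7 members by formula, the mean ± SD (n = 4) beside the points, and with the second probe set for PCYT1A and DGKG. The brightest probe set of PCYT1A is highest in L3 while its second is highest in L, and in the DGKD panel 2 of the 4 L3 arrays lie far below all others.

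Diacylglycerol kinases turn diacylglycerol, a membrane signal, back into phosphatidate. DGKG, of the calcium-binding class and abundant in brain, had log2 values of 6.67, 5.54, 6.13 and 7.95 in L3, 8.46, 6.94, 8.41 and 7.76 in L, and 7.01, 6.17, 7.71 and 7.75 in C. L3 replicates 1 to 3 lay below all L arrays, and L3 replicate 4 lay within the L range. This probe set was not bright, with deposited signals of 31.7 to 215.4 in L3, 86.8 to 380 in L and 67.5 to 179.2 in C. The median signal of an array was 108.8 to 174. DGKG differed in L3/L by −1.32 (SE 0.59, 0.400-fold) with an unadjusted limma p of 0.0381 and an exact permutation p of 0.0857, and it differed by −0.59 in L3/C and 0.74 in L/C. The L3/L p of limma was above 0.05 without L replicate 1 (0.0944), 3 (0.101) or 4 (0.0568), and without L3 replicate 1 (0.0540), 2 (0.121) or 3 (0.0846). With the spike-in signal as a covariate the L3/L difference was −0.84 (SE 0.59). It was −1.09 (SE 0.74) with age, −1.15 (SE 0.62) with the ACTB ratio and −1.39 (SE 0.63) with sex as the covariate. The second probe set of DGKG gave 0.50 in L3/L, the opposite sign.

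DGKD, of another class of these kinases, had log2 values of 9.25, 7.28, 6.90 and 9.04 in L3, 9.37, 8.80, 8.85 and 8.94 in L, and 8.98, 8.46, 9.29 and 9.28 in C. L3 replicates 2 and 3 were far below every other array, whereas L3 replicates 1 and 4 lay within the C range. The L3/C difference was −0.89 (SE 0.47, unadjusted limma p = 0.0754, exact permutation p = 0.286), or −0.49 without L3 replicate 3, and the L/C difference was −0.01. Replicates 2 and 3 were also the L3 arrays with the highest spike-in signal.

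The other diacylglycerol kinases showed wide ranges within each formula. Deposited signals ranged over 51.9 to 657.5 for DGKA, 147.3 to 348.4 for DGKB, 244.6 to 888.9 for DGKE, 72.8 to 635.8 for DGKH and 68.4 to 374.7 for DGKI. DGKQ ranged over 25.8 to 301.1 and DGKZ over 771.3 to 3699. Over the 9 kinases the median log2 difference was −0.19 in L3/C (3 higher, 6 lower), 0.13 in L/C (7 higher, 2 lower) and −0.23 in L3/L (2 higher, 7 lower). None of the 9 had an unadjusted p under 0.05 against C.

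Phospholipases D release phosphatidate from phosphatidylcholine. PLD1 had log2 values of 6.74, 6.70, 7.10 and 6.92 in L3, 7.95, 8.005, 7.25 and 7.65 in L, and 6.55, 6.09, 7.78 and 7.53 in C. All 4 L3 arrays lay below the 4 L arrays, by a mean of −0.85 (SE 0.47, exact permutation p = 0.0286, unadjusted limma p = 0.0902), and the C arrays overlapped both. PLD1 differed by −0.12 in L3/C and by 0.72 (SE 0.47) in L/C, and its 6 other probe sets gave between −0.66 and 0.17 in L3/L. Deposited signals of its brightest probe set were 63.3 to 275.9, beside array medians of 108.8 to 174. Among them L3 replicate 3, at 149.8, was above L replicate 3, at 129, so L3 and L were apart only after quantile normalization.

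PLD2 had log2 values of 8.93, 8.59, 8.26 and 8.84 in L3, 7.01, 9.13, 9.18 and 8.83 in L, and 7.60, 9.95, 8.90 and 8.77 in C. The formulas overlapped, with an L3/C difference of −0.15 (SE 0.51) that had the reverse sign without C replicate 2 (0.24).

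Across the members, groups of arrays that did not overlap on the normalized scale were few. In L3/C this held for 1 of 41 members (CDS1), in L/C for 0 and in L3/L for 2 (CHPT1 and PLD1), against percentages of 2.16, 2.08 and 2.53 over the brightest probe sets of all genes.

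CDS1 and CDS2 make CDP-diacylglycerol from phosphatidate. CDS1 had log2 values of 9.17, 8.99, 9.30 and 9.46 in L3, 10.09, 9.45, 9.23 and 9.51 in L, and 9.53, 9.46, 9.65 and 9.49 in C. All L3 arrays lay below the C arrays, with L3 replicate 4 and C replicate 2 nearly level. The difference was −0.30 (SE 0.25, 0.810-fold) with an exact permutation p of 0.0286 and an unadjusted limma p of 0.242. In the deposited signals L3 replicate 4, at 717.1, was above C replicates 1 and 2, at 703.8 and 641.1. The 3 other probe sets of CDS1 gave L3/C differences of 0.39, −0.04 and 0.14.

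CRLS1, the cardiolipin synthase of mitochondria, had log2 values of 9.55, 9.53, 8.93 and 8.82 in L3, 8.55, 8.88, 9.25 and 9.17 in L, and 9.02, 9.33, 9.12 and 8.75 in C. The formulas overlapped, and the L/C difference, −0.09 (SE 0.29), was the one with the smallest p in this branch. The second probe set of CRLS1 had its 4 L arrays above the C arrays (0.99, limma p = 0.0562, exact permutation p = 0.0286), which was seen after the choice of the brightest.

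For the rest of this branch, deposited signals ranged over 712.1 to 2280 for CDS2, 53.8 to 850.7 for CDIPT, which makes phosphatidylinositol, and 27.9 to 160.7 for PGS1, which makes phosphatidylglycerol phosphate. The median of the 5 genes was −0.15 in L3/C, −0.09 in L/C and −0.23 in L3/L, with 2 higher and 3 lower in each. CDIPT was lowest on L replicate 1, at a signal of 53.8 beside 403.1 to 641.9 on the other L arrays.

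Phosphatidylserine is made by base exchange, by PTDSS1 on phosphatidylcholine and by PTDSS2 on phosphatidylethanolamine. On the quantile-normalized scale PTDSS1 varied little among arrays, with log2 values of 11.56, 10.98, 11.04 and 11.27 in L3, 11.30, 11.24, 11.35 and 11.28 in L, and 11.59, 11.26, 11.53 and 11.48 in C. The L3 and L arrays overlapped the C arrays. PTDSS1 differed by −0.25 (SE 0.18, exact permutation p = 0.2) in L3/C and by −0.17 (SE 0.18, exact permutation p = 0.114) in L/C. Its SE after quantile normalization was the smallest of the 41 members. The deposited signals of PTDSS1 ran from 1640 to 4375. Its L3/C difference was −0.48 (SE 0.31) with no further normalization and −0.65 (SE 0.44) with each array centred on its median. PTDSS2 had deposited signals of 60.4 to 310.2.

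In the acylation steps, AGPAT4 and AGPAT5, acyltransferases for lysophosphatidate, ranked first by p value, AGPAT4 in L3/C and AGPAT5 in L/C. AGPAT4 had log2 values of 5.17, 7.19, 7.56 and 8.74 in L3, 5.59, 9.20, 9.14 and 8.36 in L, and 8.67, 6.17, 9.19 and 9.01 in C. Each formula held at least 1 array with a low value, and the L3/C difference was −1.10 (SE 0.87, exact permutation p = 0.314). Its size rested on single arrays, at −0.44 without L3 replicate 1, −1.81 without C replicate 2 and −0.32 without the 3 arrays of highest ACTB ratio. With sex as a covariate it was −0.44, and with the spike-in signal −0.42. The second probe set of AGPAT4 gave −1.20 in L3/C and −1.53 in L/C, the same sign, with an exact permutation p of 0.0571 in L/C.

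AGPAT5 had log2 values of 8.45, 8.63, 7.96 and 7.54 in L3, 5.47, 8.63, 8.42 and 8.21 in L, and 8.33, 8.95, 8.79 and 8.39 in C. L replicate 1 was far under the other L arrays, which lay near or within the C range. The L/C difference was −0.93 (SE 0.57, exact permutation p = 0.2), and −0.20 without L replicate 1.

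Elsewhere in these steps, deposited signals ranged over 335.3 to 625.9 for GPAM, the mitochondrial glycerol 3-phosphate acyltransferase, 1075 to 2835 for AGPAT1, 266.4 to 455.5 for AGPAT2 and 485.5 to 1072 for LCLAT1, which acylates lysocardiolipin. These 4 genes were among the steadier members, with SEs of 0.22 to 0.30. The median of the 6 genes was −0.07 in L3/C (3 higher, 3 lower), −0.02 in L/C (2 higher, 4 lower) and −0.08 in L3/L (2 higher, 4 lower).

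The lipins dephosphorylate phosphatidate to diacylglycerol. LPIN1 had log2 values of 9.83, 8.95, 9.94 and 9.11 in L3, 6.24, 9.36, 9.50 and 8.83 in L, and 9.30, 8.40, 9.60 and 9.30 in C. The L/C difference was −0.66 (SE 0.56) with all 12 arrays and 0.09 without L replicate 1, whose level was far below any other. LPIN2 had log2 values of 8.70, 9.43, 9.91 and 9.37 in L3, 8.74, 9.41, 9.80 and 9.49 in L, and 9.07, 10.18, 9.73 and 9.67 in C. LPIN2 overlapped among the formulas and differed by −0.31 (SE 0.33) in L3/C and −0.30 (SE 0.33) in L/C. The L3/C value was −0.10 without L3 replicate 1 and −0.15 without C replicate 2.

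The lysophospholipid acyltransferases of the remodeling cycle had the lowest L3/C median among the groups of more than 2 genes. It was −0.33 in L3/C (1 higher, 5 lower), −0.17 in L/C (1 higher, 5 lower) and −0.36 in L3/L (2 higher, 4 lower), with 0 of 6 genes at an unadjusted p under 0.05 in any comparison. On the L3 arrays their mean deviation was 0.08, −0.51, −0.63 and 0.27, on the L arrays −0.73, −0.07, 0.44 and 0.37, and on the C arrays 0.09, −0.14, 0.44 and 0.40. L replicate 1 and L3 replicates 2 and 3, the arrays with the lowest values here, were also the 3 with the highest spike-in signal.

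LPCAT2, which acylates lysophosphatidylcholine and also makes platelet-activating factor, had log2 values of 8.01, 7.93, 5.82 and 7.58 in L3, 7.69, 8.01, 8.38 and 7.83 in L, and 8.10, 8.46, 7.94 and 8.15 in C. L3 replicate 3 was lowest by far and L3 replicate 1 overlapped the C arrays. The L3/C difference was −0.83 (SE 0.46, exact permutation p = 0.0571, unadjusted limma p = 0.0920), or −0.33 without L3 replicate 3, and its other probe sets gave 0.07, −0.59 and 0.84.

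MBOAT7, which places arachidonate on lysophosphatidylinositol, had log2 values of 9.05, 6.66, 7.80 and 10.20 in L3, 7.09, 10.22, 9.51 and 9.25 in L, and 9.56, 8.70, 9.88 and 10.18 in C. Its lowest values, on L3 replicates 2 and 3 and L replicate 1, were on arrays with high spike-in signal. MBOAT7 differed by −1.15 (SE 0.69) in L3/C and by −0.56 (SE 0.69) in L/C, and the L/C difference was 0.08 without L replicate 1. The second probe set of MBOAT7 gave 0.23 in L3/C and 0.66 in L/C.

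For the remaining acyltransferases deposited signals ranged over 27.7 to 56.4 for LPCAT1, 148.4 to 507.2 for LPCAT3, which favours polyunsaturated chains, 34.7 to 734.6 for LPCAT4 and 17.8 to 603.9 for MBOAT1. The single probe set of LPCAT1 was dim on every array, close to the pseudocount. LPCAT4 was at or under a signal of 74.8 on L3 replicate 1, L replicate 1 and C replicate 2, and so was low on 1 array of each formula.

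Probe sets of the same gene often disagreed. Of the 31 members with more than 1 probe set, the signs of the difference were mixed for 19 in L3/C, 19 in L/C and 22 in L3/L. Counting every probe set, an unadjusted p under 0.05 was reached by 3 of 106 in L3/C, 2 in L/C and 4 in L3/L, or fewer than the percentages over all probe sets of 4.26, 2.42 and 5.40 give. The fifth brightest probe set of ETNK1 had the largest of these L3/C differences, 1.57 (limma p = 0.0120, exact permutation p = 0.0286), beside 0.53 for the brightest. That probe set was dim in C, at deposited signals of 13.7 to 39.7, near the pseudocount and below the median signal of every array. These signals alone do not show that it was detected in C. All 6 probe sets of ETNK1 were higher in L3 than in C. These probe sets were picked after their values had been seen.

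**Figure D5:**
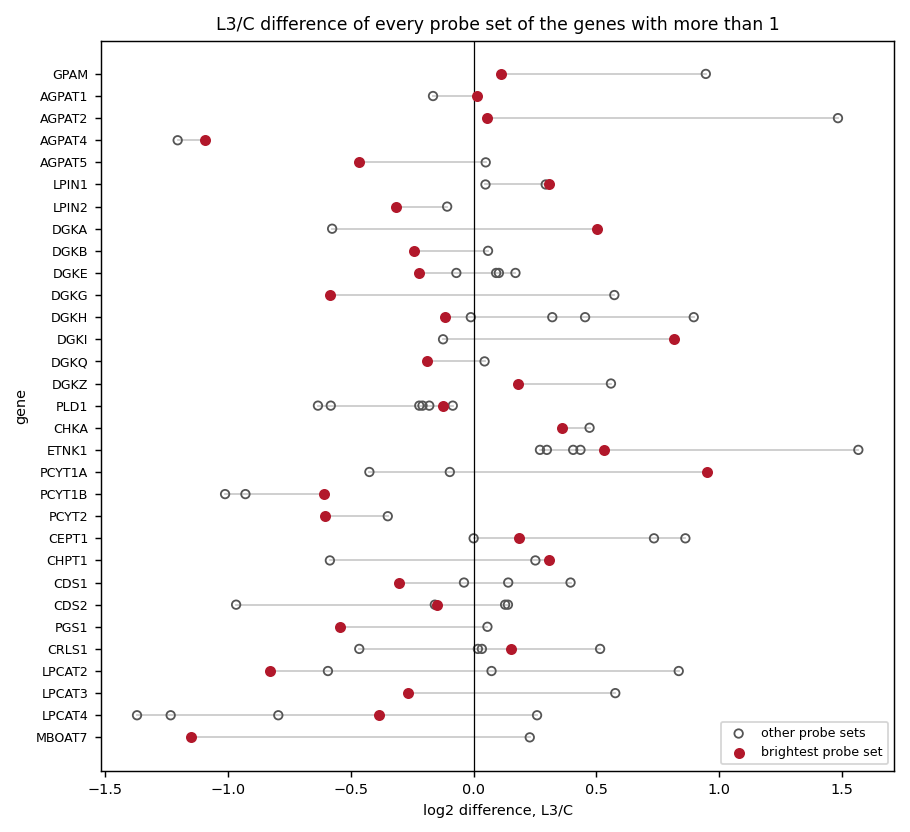
Log2 difference in L3/C (x axis) of every probe set of the 31 members with more than 1, with the brightest filled and the others open. The probe sets lie on both sides of 0 for 19 of the 31 genes, while those of ETNK1 all lie above 0.

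Set side by side, 7 members were higher than C in both L3 and L, 15 lower in both, 8 higher in L3 and lower in L, and 11 lower in L3 and higher in L. Both comparisons use the same 4 C arrays, so these numbers are a description.

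Of 52 other genes of glycerolipid metabolism, 51 were measured. An unadjusted p under 0.05 was found for 3 in L3/C (1 higher, 2 lower), 1 in L/C (lower) and 7 in L3/L (2 higher, 5 lower), and for 0 after adjustment by limma. The percentages over the brightest probe sets of all genes were 3.88, 2.11 and 5.06, so the L3/L count, 13.7% of the 51, was the one furthest above them. The median log2 difference was −0.20 in L3/C (14 higher, 37 lower), −0.01 in L/C (23 higher, 28 lower) and −0.04 in L3/L (21 higher, 30 lower).

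DGAT2, which turns diacylglycerol into triacylglycerol, had deposited signals of 29.0, 76.6, 20.0 and 360.2 in L3, 144.3, 469.4, 454.8 and 426.6 in L, and 352.7, 328.0, 548.8 and 502.0 in C. L3 replicates 1 to 3 were below all C arrays and L3 replicate 4 was within the C range. Those L3 replicates 1 to 3, and L replicate 1, the lowest of the L arrays, had the highest spike-in signals of all arrays. The part of the spike-in signal in the difference was not tested. DGAT2 differed by −2.36 (SE 0.66) in L3/C, with an unadjusted limma p of 0.00239, an exact permutation p of 0.0857 and an adjusted p of 0.999.

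LYPLA1, a lysophospholipase, had deposited signals of 858.4, 692.1, 720.6 and 815.1 in L3, 505.8, 705.9, 876.0 and 763.5 in L, and 415.7, 574.2, 455.4 and 711.1 in C. Its normalized L3 values all lay above those of C, by 0.60 (SE 0.26, exact permutation p = 0.0286, unadjusted limma p = 0.0342). The other genes with the smallest p were PIP4K2C, a phosphoinositide kinase, with −0.95 (SE 0.43) in L3/C, and in L/C PHOSPHO1, a phosphocholine phosphatase, with −0.85 (SE 0.40) and PLPP2, a lipid phosphate phosphatase, with 1.54 (SE 0.78). PHOSPHO1 was dim, at signals of 13.7 to 64.2 in L3, 9.1 to 29.0 in L and 16 to 69.9 in C. PLPP2 was also dim on most L3 and C arrays, at signals of 7.8 to 214.1 in L3, 53.8 to 164.8 in L and 10.6 to 127.6 in C.

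The 7 genes of the L3/L count are named after their values were seen. DGAT2 differed in L3/L by −2.07 (SE 0.66), PLPP2 by −1.74 (SE 0.78), PIP4K2C by −0.97 (SE 0.43), LYPLA2, a second lysophospholipase, by −0.89 (SE 0.37) and PIP5K1C, a phosphoinositide kinase, by −0.86 (SE 0.32). Higher in L3 than in L were GPAT3, a glycerol 3-phosphate acyltransferase, by 1.22 (SE 0.46), and TAMM41, which makes CDP-diacylglycerol in mitochondria, by 1.25 (SE 0.53). GPAT3 was dim, at signals of 12.3 to 88.9 in L3 and 2 to 28.7 in L, around the pseudocount of 16. The L3 arrays lay apart from the L arrays for LYPLA2 alone (exact permutation p = 0.0286). PLPP2 was lower and TAMM41 higher on L3 replicates 1 to 3 and L replicate 1 than on the other arrays of these formulas. As for DGAT2, those were the arrays with the highest spike-in signals, and the part of that signal was not tested.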

How the data were processed

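Each of 12 baboons gave total RNA of the precentral gyrus for 1 Affymetrix HG-U133 Plus 2.0 array. The authors deposited MAS5 signals, an intensity on a linear scale, for 54675 probe sets, scaled by their software to a trimmed mean near 250 on every array. RMA, which the methods of the study name, gives other values and could change the spread of dim probe sets. The number of arrays, 4 per formula, limits the precision.

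Without the 62 control probe sets, log2 (signal + 16) was quantile normalized across arrays. Then limma 3.58.1 in R 4.3.3 fitted the 3 formula means (9 residual degrees of freedom, variance trend) with Benjamini-Hochberg adjustment over 54613 probe sets at 0.05. Exact two-sided permutation tests compared 4 with 4 arrays. The platform annotation gave 1 symbol to 41091 probe sets, several to 1801 and none to 11721.

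Members and lists were chosen with earlier results of these data known. Values of every array are given for members with an unadjusted limma p under 0.05 and for the first by p value in each role group, once for L/C and once for L3/C. Genes named beyond this rule are marked as such. Of 52 other glycerolipid genes, up to 6 with the smallest p are named. Marker lists served to check the tissue. Alternatives were other normalization, pseudocounts of 1 and 64, a filter on dim probe sets, other variance models, covariates (sex, age, ACTB ratio, spike-in signal), females only, a replicate block, array weights, other probe sets and leaving out arrays. Scripts (Python 3.11.15, numpy 2.4.6, pandas 2.3.3) were tested on simulated data.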

Additional observations from a re-analysis of the deposited data

Results flagged for a closer look

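Among 48 sets of 4 arrays examined (15 named genes and the mean of the members, in 3 formulas), 5 held 1 array that stood far from the other 3, where chance gives about 1 in 20. All but 1 of the 5 concerned L replicate 1. On it the deposited signal was 36.7 for AGPAT5, 65.4 for PCYT2 and 135.9 for PLD2, each the lowest of the L arrays, and the mean log2 deviation of the 41 members was −0.6204. This array had a mean log2 spike-in signal of 13.04 and a log2 ACTB ratio of 3.45, both the highest among the L arrays. For AGPAT4, C replicate 2 had a signal of 67.5, against 398.0 to 583.3 on the other C arrays.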

How the results depend on the processing

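Precision rested on 4 arrays per formula, and signals near the pseudocount, as for LPCAT1, limit any difference. The number of members at an unadjusted limma p under 0.05 in L/C, 0 of 41, was 1 with the age covariate, the ACTB ratio covariate, the spike-in covariate and without the 3 arrays of highest ACTB ratio, 2 over all probe sets, and 0 to 1 with arrays left out in turn (1 without L replicate 1). In L3/C, 1 of 41, it was 0 with median centring, the sex covariate, females only, array weights and the methods' tests, 3 over all probe sets, and 0 to 4 with arrays left out (4 without L3 replicate 1, 3 without L3 replicate 4). Over all probe sets the percentage in L3/C was 4.26 with every array, 4.87 without L3 replicate 1 and 7.88 without L3 replicate 4. It was 4.26 with median centring, 3.22 with the sex covariate, 2.97 for females only and 4.38 with array weights. In L/C it was 2.42 with every array, 3.60 with the age covariate, 3.05 with the ACTB ratio and 3.13 with the spike-in signal. Also in L/C it was 2.60 without the 3 arrays of highest ACTB ratio and 3.06 without L replicate 1. In L3/L the number of members, 1 of 41, was 0 with no further normalization, array weights and the methods' tests, and 3 with no variance trend. It was 2 with the age covariate and with the probe set of largest interquartile range, and 4 over all probe sets. With arrays left out it was 0 to 3 (3 without L3 replicate 4, where the percentage over all probe sets was 9.95, against 5.40 with every array). The L3/L percentage over all probe sets was 5.31 with no further normalization, 7.69 with array weights, 5.60 with no variance trend and 5.03 with the age covariate. For any difference the number of members, 0 of 41, was 1 with the ACTB ratio covariate, without the 3 arrays and over all probe sets. With arrays left out it was 0 to 2. The percentages beside these were 3.95 with the ACTB ratio, 4.39 without the 3 arrays and 3.08 to 6.81 with arrays left out. The cause was not tested. Replicate numbers were given in the titles. Of 12 same-numbered pairs 9 had a positive correlation of their deviations and 6 one over the cut of 0.1. Those 6 were all of replicates 1 and 4, whose arrays thus deviated together across formulas. Of 12 arrays 6 correlated best with their own number. The main fit did not take the numbers as pairs, and what the numbers stand for was not tested. In each formula replicate 1 had the highest ACTB ratio, and replicate 4 the lowest ACTB ratio and spike-in signal. With the replicate block, limma's p was under 0.05 for 2 members in L3/C, PCYT1A and DGKD (DGKD at 0.0466, against 0.0754 with no block), and for 2 in L3/L, beside 5.19 and 7.01 as the percentages over all probe sets. Medians moved by less than the spread between arrays, over −0.31 to −0.01 in L3/C, −0.16 to 0.11 in L/C and −0.38 to 0.08 in L3/L. Median centring moved the median of all probe sets to −0.12 in L3/C and −0.13 in L3/L, beside member medians of −0.31 and −0.38.

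Signs turned for 7 named differences, none of them called after adjustment. CRLS1 in L/C was 0.006157 with median centring, 0.10 with array weights, 0.41 with the probe set of largest interquartile range and 0.03564 without the 3 arrays of highest ACTB ratio. With that choice of probe set LPCAT2 in L3/C was 0.84, PCYT1A in L3/C −0.42 and PCYT2 in L/C 0.004338. Without the 3 arrays LPIN1 in L/C was 0.14 and MBOAT7 in L/C 0.0796. PLD2 in L3/C was 0.17 with the age covariate and 0.05872 with the spike-in covariate. With arrays left out in turn, CRLS1 in L/C was −0.1929 to 0.04456, LPIN1 in L/C −1.001 to 0.08575, MBOAT7 in L/C −0.9463 to 0.08275 (each highest, and positive, without L replicate 1), and PLD2 in L3/C −0.5488 to 0.2375 (highest without C replicate 2).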
